A study of Mus musculus with 2 samples.

Results

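The genes described here are 35 genes of glycolysis and pyruvate handling, chosen by symbol with earlier results of these data known. They comprise 3 glucose transporters, 3 hexokinases, the isomerases, kinases, aldolases and mutases that carry glucose to pyruvate, the phosphofructokinase-2 isozymes that tune the pathway, 2 lactate dehydrogenases, 2 monocarboxylate transporters, and the genes that admit pyruvate to the mitochondrion and feed it to pyruvate dehydrogenase. All 35 symbols were among the 24984 genes listed in both libraries. Together they held 0.434% of the molecules counted in Ctrl cells and 0.407% in dKO cells.

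The libraries hold mononuclear cells of hind limb muscle. All the mice carried mdx, a mutation that removes dystrophin, so that their muscle is injured and repaired repeatedly. In Ctrl mice (Pax7 CreERT2/R26YFP; Yy1 +/+; mdx) the transcription factor Yy1 was intact. In dKO mice (Pax7 CreERT2/R26YFP; Yy1 f/f; mdx) its gene was floxed, and Pax7, a gene of muscle stem cells, drives the tamoxifen-inducible recombinase, so that the deletion was directed at muscle stem cells and not at the other cells of the tissue. Both genotypes received tamoxifen on 5 days at 1.5 months of age, live cells were sorted 1 month after the injection, and each genotype is 1 library pooled from 3 mice. No difference between the genotypes therefore has a replicate check, all intervals given here cover counting error only, and differences between mice and between library preparations cannot be told apart from the genotype.

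Glycolysis splits glucose into pyruvate in the cytosol and yields ATP without oxygen. Pyruvate is then either reduced to lactate and exported or carried into the mitochondrion and oxidized, and most steps are served by several isozymes whose use differs between tissues. In skeletal muscle, the fibers carry muscle-specific isozymes such as Eno3 and Pgam2, while activated macrophages and proliferating cells are known for a high glycolytic rate.

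Single-cell counts of unique molecular identifiers (UMIs, 1 for each captured molecule whatever the length of its transcript) were available for 4527 Ctrl and 3483 dKO barcodes, with 45556596 and 33815155 UMIs and medians of 7697 and 7615 UMIs a cell. After cells with under 500 genes and the 7.5% of cells most like doublets were left out, 4010 Ctrl and 3079 dKO cells remained, and 6 of their barcodes occurred in both libraries. The cells fell into 22 clusters, of which 20 carried 14 names from marker genes and 2 (cluster 5, led by Fcna, and cluster 12, led by Dcstamp and Ear2) stayed unnamed. Both unnamed clusters carried 12 of 12 monocyte/macrophage markers, but 1 leading gene of each was on the list of another cell type. They are not part of the monocyte/macrophage-like class described below. The 35 genes took no part in the choice of the genes used for clustering. Levels are CPM, the UMIs of a gene summed over the cells of a class per 1000000 UMIs of that class. As a check of the labels, Yy1 had 369 UMIs in the 116 MuSC-like cells of Ctrl (160 CPM) and 3 UMIs, all in 1 cell, in the 30 MuSC-like cells of dKO (4.85 CPM), while in fibro-adipogenic progenitor (FAP)-like cells it stood at 119 CPM in Ctrl and 133 CPM in dKO.

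The promoters of Slc2a1, Hk2, Slc16a1 and Ldhb, which differed between the libraries below, are shown. So is 1 promoter of Ldha, picked because it held several matches to the core named next. They are shown because many genes of this pathway are known targets of factors that bind ACGTG or GCGTG, the core of the hypoxia response element. Promoters of the other genes that differed are not printed. That of Pgam2 held 0 matches and that of Eno3 held 1. RefSeq sequence of the 250 bases before a gene start was found for 33 of the 35 genes, in build GRCm38.p6, with 1 window for each start. Slc2a3 and Slc2a4 had none. In the lines below, capitals mark ACGTG or GCGTG on either strand, overlapping matches run together, and ACGTG also lies within the E-box CACGTG.
Slc2a1: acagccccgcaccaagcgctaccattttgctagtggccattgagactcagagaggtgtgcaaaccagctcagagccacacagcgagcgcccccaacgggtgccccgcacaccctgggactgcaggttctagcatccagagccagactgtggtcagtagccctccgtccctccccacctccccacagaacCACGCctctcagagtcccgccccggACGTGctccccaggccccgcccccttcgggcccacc
Hk2: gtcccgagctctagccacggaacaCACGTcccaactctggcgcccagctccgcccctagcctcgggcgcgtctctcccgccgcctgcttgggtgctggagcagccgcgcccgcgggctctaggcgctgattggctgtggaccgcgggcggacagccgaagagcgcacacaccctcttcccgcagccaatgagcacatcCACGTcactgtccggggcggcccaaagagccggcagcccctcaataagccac
Slc16a1: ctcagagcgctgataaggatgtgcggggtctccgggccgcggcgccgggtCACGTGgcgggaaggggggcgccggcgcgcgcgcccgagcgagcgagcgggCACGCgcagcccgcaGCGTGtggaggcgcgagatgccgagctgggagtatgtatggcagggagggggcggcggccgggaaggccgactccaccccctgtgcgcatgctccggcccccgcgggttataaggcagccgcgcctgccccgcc
Ldhb: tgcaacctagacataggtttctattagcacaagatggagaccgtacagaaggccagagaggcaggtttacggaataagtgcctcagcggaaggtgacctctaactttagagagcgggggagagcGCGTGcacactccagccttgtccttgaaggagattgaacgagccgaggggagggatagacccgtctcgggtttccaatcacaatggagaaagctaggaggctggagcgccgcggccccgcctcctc
Ldha: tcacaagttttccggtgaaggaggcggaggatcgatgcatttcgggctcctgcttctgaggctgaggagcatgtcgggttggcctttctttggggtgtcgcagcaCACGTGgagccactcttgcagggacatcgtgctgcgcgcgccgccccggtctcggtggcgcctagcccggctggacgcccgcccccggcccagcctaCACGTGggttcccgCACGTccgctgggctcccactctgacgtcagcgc
The Slc2a1 window is chr4:119108495-119108744 on the plus strand, with GCGTG on the opposite strand at bases -61 to -57 and ACGTG at -36 to -32 from the gene start. That of Hk2 is chr6:82774455-82774704 on the minus strand, with ACGTG on the opposite strand at -226 to -222 and at -52 to -48. That of Slc16a1 is chr3:104638414-104638663 on the plus strand, where ACGTG occurred on both strands at -200 to -195 and GCGTG on the opposite strand from -149 and on the gene's own strand from -134. The Ldhb window, chr6:142507958-142508207 on the minus strand, held 1 GCGTG at -126 to -122. The Ldha window shown, chr7:46845554-46845803 on the plus strand, held 5 ACGTG matches, where each CACGTG counts on both strands. Another Ldha window, chr7:46846832-46847081, held 0 ACGTG and 1 GCGTG. Across all windows of the set, 39 of 50 (78%) held either core, against 38.6% of 32851 windows of the same length, and counted by gene 29 of 33 (87.9%) did, against 41.5% of 27025 genes. ACGTG alone was in 15 of the 33 genes (45.5%) and in 18.5% of all genes. The windows of the set were also richer in G and C, with a median of 60.4% against 52.4%. A match says only that these letters occur there.

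The summed level of the 35 genes differed far more between cell classes than between the libraries within a class, where the ratio of dKO to Ctrl ran from 0.792 in neutrophil-like to 1.15 in T-like cells. It was highest in MuSC-like cells, at 8731 CPM in Ctrl and 7780 CPM in dKO. Neutrophil-like cells followed in Ctrl at 7360 CPM and stood at 5831 CPM in dKO, below the cycling MO/MP-like cells of that library, and monocyte/macrophage (MO/MP)-like cells stood at 5504 and 4859 CPM. FAP-like cells (2812 and 3070 CPM) and endothelial cell (EC)-like cells (2834 and 3149 CPM) lay lower, next to each other in Ctrl, and B-like cells were lowest at 1950 and 2088 CPM. Cycling MO/MP-like cells, at 5886 and 6267 CPM, stood above the other MO/MP-like cells. The cluster named cycling FAP-like, at 4920 and 5571 CPM, stood above the FAP-like cells. It carried all 10 cycling and all 10 FAP markers but was led by Cxcl5, Il1rl1, Inhba and Lif as well as by genes of the cell cycle. In 3 other clusterings a Cxcl5 cluster of 538 to 710 cells came apart from the cycling cells and was named FAP-like.

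**Figure D1:**
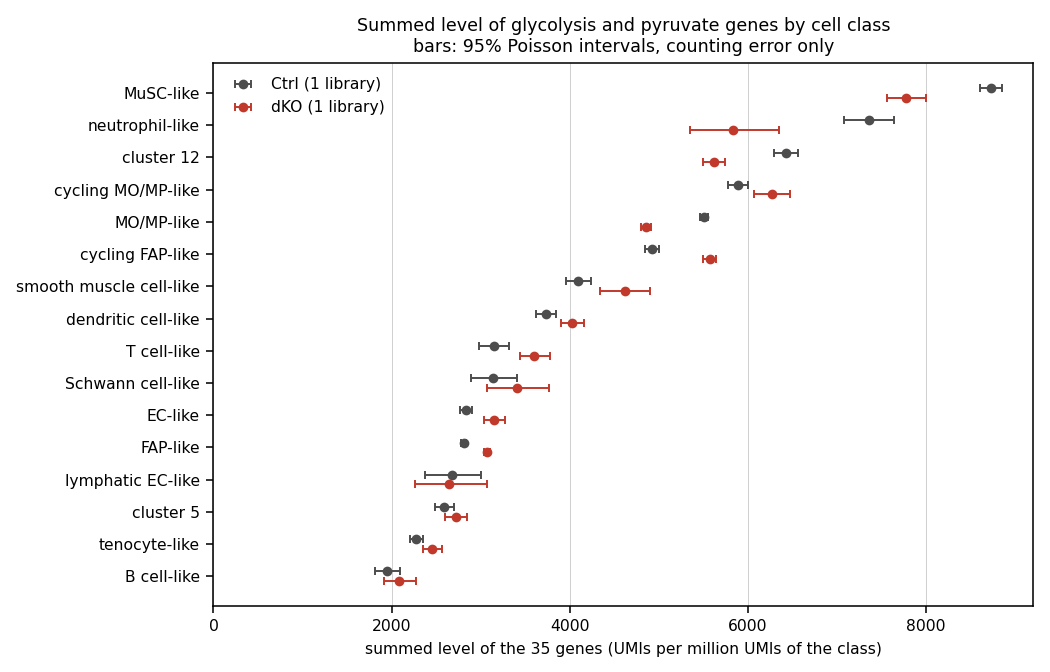
Summed level of the 35 genes in each of 16 cell classes or unnamed clusters, in CPM, for the Ctrl and dKO libraries, with 95% Poisson intervals that cover counting error only. MuSC-like cells stand highest in both libraries (8731 CPM in Ctrl and 7780 CPM in dKO) and B-like cells lowest (1950 and 2088 CPM).

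Gapdh, which oxidizes glyceraldehyde 3-phosphate, was the most abundant of the genes, with 25.5% of the set's UMIs in FAP-like cells, 30.2% in MO/MP-like cells and 37.6% in MuSC-like cells of Ctrl. Each gene was then placed by the class where it stood highest. For 21 of the 35 genes this was the same class in both libraries, although the lead of a small class often rested on few UMIs. In Ctrl, 9 genes stood highest in MuSC-like cells, 7 in neutrophil-like cells, 7 in Schwann-like cells, 3 in smooth muscle-like cells, 2 in EC-like cells, 2 in dendritic-like cells and 1 in each of 5 further classes. The core enzymes Gapdh, Aldoa (aldolase), Tpi1 (triosephosphate isomerase) and Pgk1 (phosphoglycerate kinase) were among those highest in MuSC-like cells in both libraries, as were Pdha1 and Pdhb, subunits of pyruvate dehydrogenase. Ldha, which makes lactate from pyruvate, was highest in cycling FAP-like cells, at 566 CPM in Ctrl and 678 CPM in dKO.

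**Figure D2:**
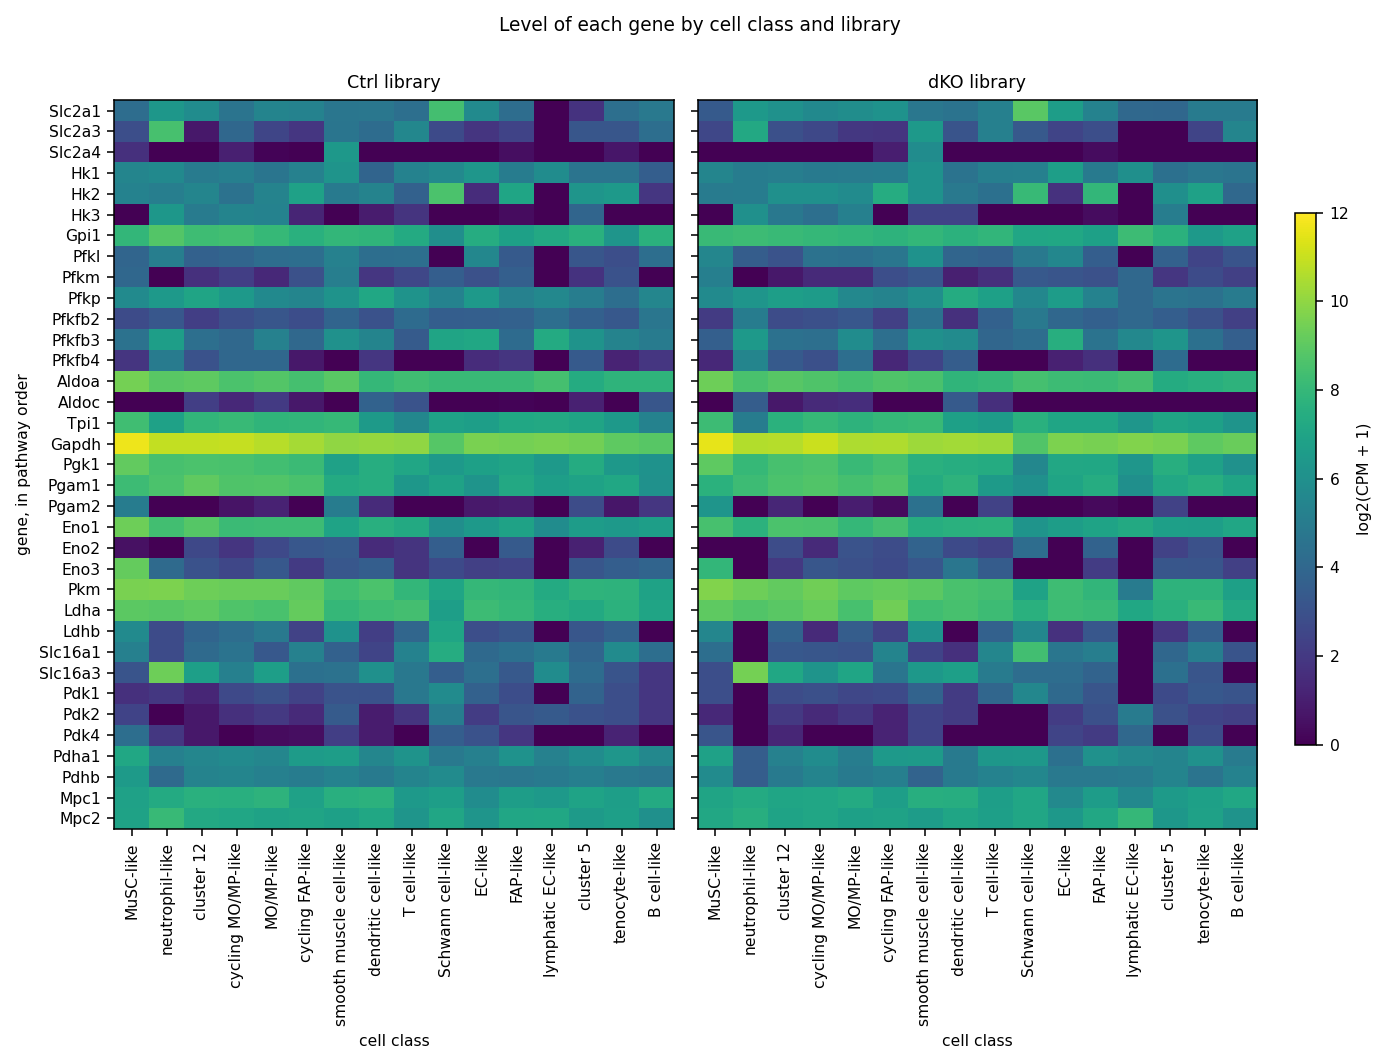
Level of each of the 35 genes in each cell class, as log2(CPM + 1), with the Ctrl library on one panel and the dKO library on the other. Gapdh, Aldoa, Pkm and Ldha have UMIs in every class, and Slc2a3, Slc2a4, Hk3, Eno3 and Slc16a3 stood out in few classes.

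Among the glucose transporters, Slc2a1 (the widespread GLUT1) made up 79.9% of the family's 303 UMIs in FAP-like cells and 95.3% in EC-like cells of Ctrl. Slc2a3 (GLUT3, of high affinity) led in neutrophil-like cells with 128 of 157 transporter UMIs (81.5%, 95% exact binomial interval 74.6% to 87.3%), and these cells held 33.6% of all Slc2a3 UMIs of the Ctrl library. In dKO they held 14 of 205 (6.83%), and FAP-like cells held 40%. Such shares also follow class size, and neutrophil-like cells numbered 98 in Ctrl and 36 in dKO. Slc2a4, the insulin-responsive GLUT4 of muscle and fat, led in smooth muscle-like cells with 69 of 110 transporter UMIs (62.7%, 53.0% to 71.8%) in Ctrl. In dKO it gave 13 of 39 (33.3%), and Slc2a3 led there with 20 of 39 (51.3%). Of the 83 Slc2a4 UMIs of the Ctrl library, 83.1% lay in that class, as did 61.9% of the 21 of the dKO library. The smooth muscle-like cluster carried 6 of 7 smooth muscle, 7 of 7 pericyte and 10 of 10 EC markers. With doublets kept, smooth muscle-like (155 cells) and pericyte-like (65 cells) clusters formed apart. Which of these cells held Slc2a4 was not tested. MuSC-like cells, the class of the muscle lineage itself, had 5 Slc2a4 UMIs in Ctrl and 0 in dKO.

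The hexokinases, which trap glucose in the cell, divided sharply between classes. In FAP-like cells of Ctrl, Hk2 gave 80.2% of hexokinase UMIs, and in EC-like cells Hk1 gave 97.6%. Hk3, an isozyme of myeloid cells, gave 37.9% in MO/MP-like cells and 49.2% in neutrophil-like cells, and was represented by 4 UMIs in FAP-like and 0 in EC-like cells. When each cell was thinned to 2000 UMIs, with 61 Ctrl and 51 dKO FAP-like cells left out as too shallow, 17.8% of FAP-like cells in Ctrl and 30.1% in dKO had an Hk2 UMI (46.5% and 57.0% unthinned), against 0.252% and 0.699% of EC-like cells, whose median depths were 4661.5 and 3802 UMIs beside 11308.5 and 11488 UMIs in FAP-like cells. Hk3 was found in 6.70% and 6.82% of thinned MO/MP-like cells (24% and 20% unthinned), and in 0 of 945 and 1 of 966 thinned FAP-like cells (4 of 1006 and 4 of 1017 unthinned). At the thinned depth the 0 allows a share of up to 0.390% of cells with a UMI by the exact binomial interval, which does not limit the share of cells that express the gene.

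At the committed step of phosphofructokinase, Pfkp (the platelet-type isozyme) led in every class of Ctrl. It did not lead in smooth muscle-like cells of dKO, where Pfkl had 16 of 32 UMIs and Pfkp 14. Nor did it lead in lymphatic EC-like cells of dKO, where Pfkp and Pfkm both stood at 15.6 CPM. Pfkp reached its highest level in dendritic-like cells, at 143 CPM in Ctrl and 168 CPM in dKO. Of the isozymes that make the activator fructose 2,6-bisphosphate, Pfkfb3 gave 91.5% in EC-like cells, where it had 375 UMIs in Ctrl. Late in the pathway, the muscle enolase Eno3 gave 46.7% of enolase UMIs in MuSC-like cells of Ctrl and 40.2% in dKO. Those cells held 84% of all Eno3 UMIs of the Ctrl library and 48.1% of the dKO library. In dKO, FAP-like and MO/MP-like cells held 14.1% each. These shares also follow class size, as MuSC-like cells numbered 116 in Ctrl and 30 in dKO. Eno3 had 59 UMIs in Ctrl and 44 in dKO in FAP-like cells, and 97 and 44 in MO/MP-like cells. The muscle mutase Pgam2 lay mostly in MuSC-like cells (73 of 136 UMIs in Ctrl) and smooth muscle-like cells (26 of 136).

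Of the lactate genes, Ldha gave most lactate dehydrogenase UMIs in every other class of Ctrl, while Ldhb, the isozyme typical of cells that use lactate, gave 24 of 43 in Schwann-like cells of Ctrl (55.8%, 39.9% to 70.9%) and 21.5% in smooth muscle-like cells. In dKO it gave 5 of 26 in the Schwann-like cells (19.2%, 6.55% to 39.4%). With doublets kept, Schwann-like and perineurial-like cells formed separate clusters. Ldhb and Ldha had 14 and 7 UMIs in those Schwann-like cells in Ctrl and 15 and 6 in dKO. In the perineurial-like cells they had 23 and 21 UMIs in Ctrl and 3 and 9 in dKO. The lactate transporters divided between classes too. Slc16a3 (MCT4, of low affinity and tuned to lactate export) gave 92.2% of the pair's UMIs in MO/MP-like and 99.2% in neutrophil-like cells, whereas Slc16a1 (MCT1) gave 68.9% in FAP-like, 87.5% in tenocyte-like and 93.9% in Schwann-like cells. Slc16a3 is also 1 of the 10 leading genes of the Slpi cluster of MO/MP-like cells, where it stood at 414 CPM in Ctrl and 406 CPM in dKO. The Schwann-like cluster carried markers of Schwann cells (8 of 8) and of perineurial cells (7 of 7) alike.

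**Figure D3:**
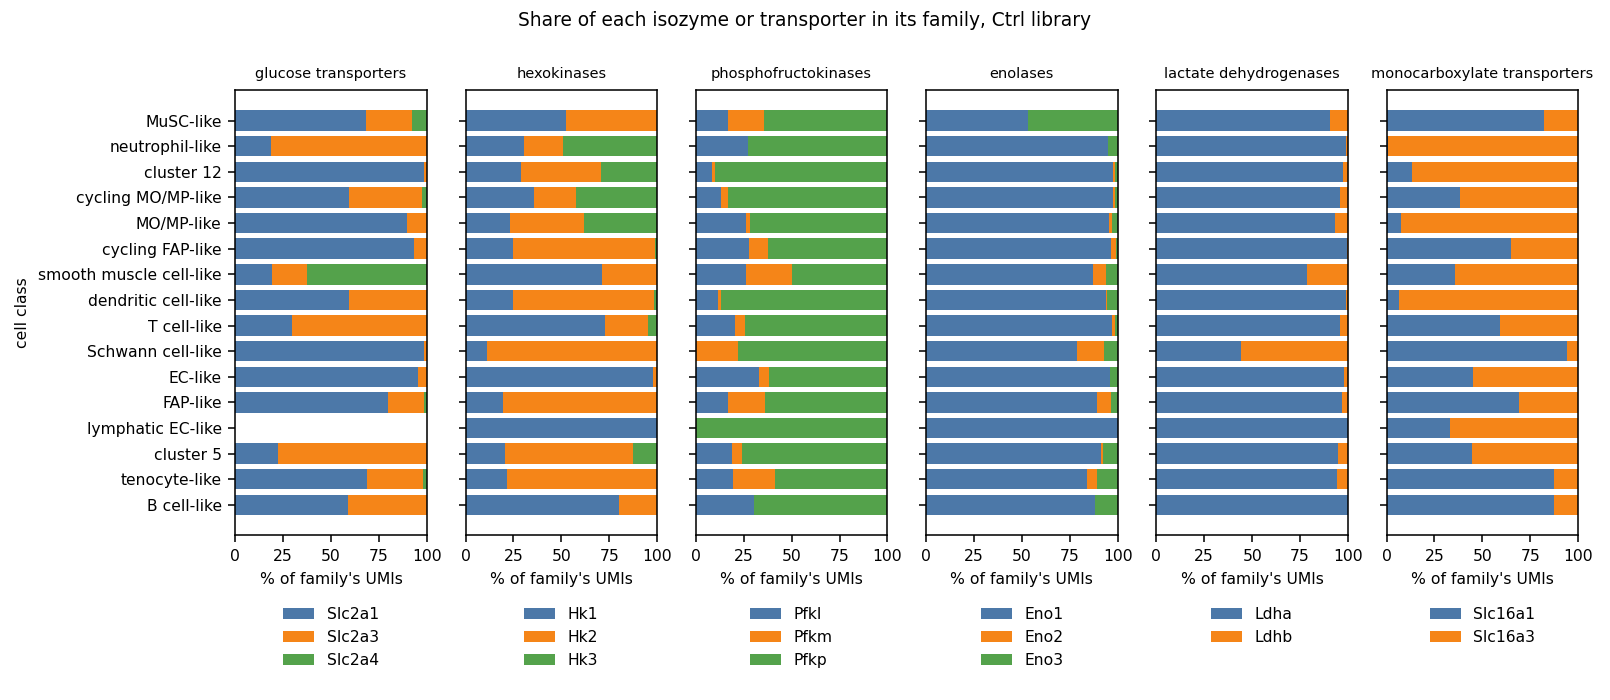
Shares of the UMIs of each isozyme family, in percent, by cell class in the Ctrl library. Hk1, Hk2 and Hk3 lead in different classes (97.6% Hk1 in EC-like, 80.2% Hk2 in FAP-like cells), and so do Slc16a1 and Slc16a3; lymphatic EC-like cells had no glucose transporter UMI.

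In FAP-like cells, the connective tissue progenitors of muscle (1006 Ctrl and 1017 dKO cells), the glucose transporter gene Slc2a1, the hexokinase gene Hk2 and the lactate transporter gene Slc16a1 were higher in dKO. Slc2a1 had 242 UMIs in Ctrl and 495 in dKO, or 18.5 and 38.9 CPM, a ratio of 2.10 (95% exact conditional interval 1.80 to 2.46). Hk2 had 1719 and 3174 UMIs, or 131 and 249 CPM, a ratio of 1.90 (1.79 to 2.01). Slc16a1 had 268 and 437 UMIs, or 20.5 and 34.3 CPM, a ratio of 1.68 (1.44 to 1.96), or 0.74 on the log2 scale, where the mean of each cell's CPM (0.56) and cells of at least 200 genes (0.58) gave less than 1.5-fold. Between them these genes admit glucose, phosphorylate it and carry lactate across the membrane.

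Of the 35 genes, 29 had at least 100 UMIs in FAP-like cells over both libraries. Past a ratio of 1.5, 4 of them were higher in dKO (Slc2a1, Hk2, Slc16a1 and Slc2a3), where 2.95% of the 9991 genes with that minimum were higher, and 1, Pfkm, was lower, where 3.06% of genes were. The median log2 ratio was 0.08 over the 29 genes and -0.07 over all 9991. Slc2a3 lay just past the limit, with 56 and 82 UMIs and a ratio of 1.504 (1.06 to 2.15), and stayed past it under 3 of 9 alternatives. Pfkm, the muscle phosphofructokinase, had 151 UMIs in Ctrl and 89 in dKO, or 11.54 and 6.99 CPM, a ratio of 0.606 (0.461 to 0.792). Markers of muscle fibers moved the same way as Pfkm in these cells. Their sum over 12 genes was 63.1 CPM in Ctrl and 19.5 CPM in dKO, with 1 and 0 of the 12 at 0. Without the cells in which fiber markers exceeded 0.1% of UMIs the log2 ratio of Pfkm was -0.72, with the markers still higher in Ctrl, at 29.2 CPM against 16.4 CPM. The part of fiber RNA in the Pfkm difference was not tested. As the mean of each cell's CPM, Pfkm was at -0.55, short of 1.5-fold.

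Of the other carriers and regulators, Slc16a3 (9.25 and 13.0 CPM, ratio 1.40, 1.10 to 1.79) and Pfkfb3 (17.5 and 22.6 CPM, ratio 1.29, 1.08 to 1.54) were higher in dKO by less than the 1.5-fold limit. Hk1, in contrast to Hk2, stood at 32.1 CPM in Ctrl and 28.4 CPM in dKO, a ratio of 0.885 (0.767 to 1.02). Hk2 thus gave 80.2% of hexokinase UMIs in Ctrl and 89.7% in dKO.

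Among the core enzymes, Gapdh stood at 718 CPM in Ctrl and 734 CPM in dKO (ratio 1.02, 0.994 to 1.05), Pkm, which makes pyruvate, at 236 and 238 CPM (1.01), and Tpi1 at 139 and 131 CPM (0.943). Pgam1, the widespread phosphoglycerate mutase, was at 152 and 174 CPM (1.14, 1.08 to 1.22) and Ldha at 253 and 282 CPM (1.12, 1.06 to 1.17), both above 1 by more than counting error. The genes of pyruvate entry were near 1 as well, with the pyruvate carrier subunits Mpc1 at 101 and 99.3 CPM and Mpc2 at 137 and 144 CPM, and Pdha1 at 69.4 and 66.5 CPM. The other 13 genes with the minimum ran from 0.766 (Eno3) to 1.31 (Pdk1, a kinase that shuts pyruvate dehydrogenase). As the mean of each cell's CPM, Eno3 was at -1.01 and Pdk1 at 0.72 on the log2 scale, both past 1.5-fold. Slc2a4, Hk3, Pfkfb4, Aldoc, Pgam2 and Pdk4 had fewer UMIs, from 1 for Aldoc to 78 for Pdk4 over both libraries. The summed level of the set was 1.09 times as high in dKO (1.08 to 1.11).

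**Figure D4:**
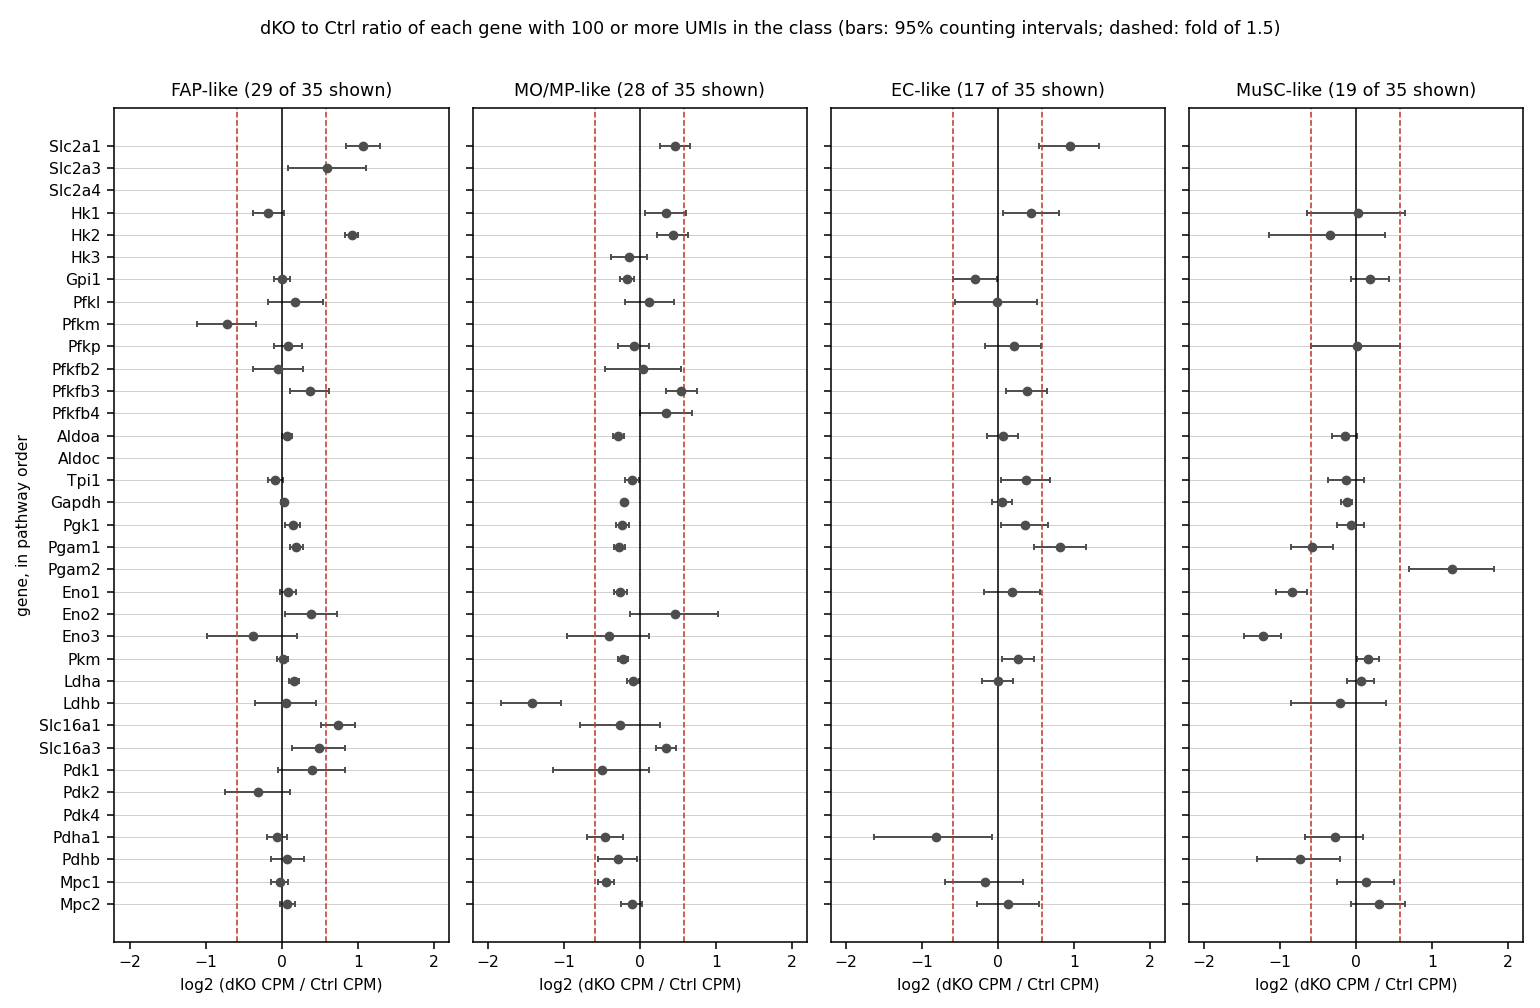
Log2 ratio of dKO to Ctrl CPM for each gene of the set with at least 100 UMIs over both libraries, in FAP-like, MO/MP-like, EC-like and MuSC-like cells (29, 28, 17 and 19 of 35 genes), with 95% conditional intervals that cover counting error only and dashed lines at a ratio of 1.5 in each direction. Slc2a1 and Hk2 lead in FAP-like cells and Ldhb lies lowest in MO/MP-like cells.

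The FAP-like class held 3 clusters, led by Inmt, Postn and Cxcl13, in nearly the same proportions in both libraries (509, 361 and 136 cells in Ctrl, 511, 349 and 157 in dKO). Slc2a1 was higher in dKO in each of them. It stood at 10.2 CPM in Ctrl and 27.5 CPM in dKO in the Inmt cluster (ratio 2.70, 1.93 to 3.85), at 23.7 and 49.0 CPM in the Postn cluster (2.06, 1.70 to 2.51), and at 20.4 and 33.5 CPM in the Cxcl13 cluster (1.64, 1.02 to 2.72). Hk2 behaved likewise, with 150 and 265 CPM, 110 and 228 CPM, and 182 and 282 CPM in the same order. Slc16a1 was 1.67, 1.58 and 1.48 times as high in dKO in those clusters. Slc2a3 was less even, at 1.82 in the Inmt cluster, 1.13 in the Postn cluster and 1 UMI against 8 in the Cxcl13 cluster. In the cycling FAP-like class, led by Cxcl5 and cell cycle genes (119 and 163 cells), Slc2a1 stood at 39.0 and 68.3 CPM (1.75, 1.40 to 2.202), Hk2 at 114 and 170 CPM and Slc16a1 at 37.3 and 41.0 CPM, the last a difference within counting error.

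In MO/MP-like cells, the phagocytes that enter and clear injured muscle (1082 Ctrl and 830 dKO cells), 1 gene of the set lay past 1.5-fold, Ldhb, which was lower in dKO. It had 307 UMIs in 184 cells of Ctrl and 69 UMIs in 50 cells of dKO, or 28.3 and 10.6 CPM, a ratio of 0.373 (0.283 to 0.486). Ldhb was the 1 gene of the 28 with at least 100 UMIs that lay past 1.5-fold lower, where 3.18% of 8215 genes did, and 0 of the 28 lay past 1.5-fold higher, where 4.84% did. As the mean of each cell's CPM, Hk2 (0.62 on the log2 scale) and Eno2 (0.66) were past it higher, and Eno3 (-0.80) and Pdk1 (-0.65) past it lower, besides Ldhb. The median log2 ratio was -0.15 over the 28 genes and near 0 over all 8215 (-0.0017).

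The other differences in this class fell short of 1.5-fold in the summed counts. Aldoa, Tpi1, Gapdh, Pgk1, Pgam1, Eno1 and Pkm lay at 0.821 to 0.933 of Ctrl with intervals clear of 1, while the less abundant Eno2 was at 1.37 (0.917 to 2.05) and Eno3 at 0.753 (0.515 to 1.09). Gapdh stood at 1665 CPM in Ctrl and 1448 CPM in dKO (ratio 0.870, 0.848 to 0.892), Aldoa at 435 and 357 CPM (0.821, 0.781 to 0.862), and Pgam1 at 429 and 356 CPM (0.830). Eno1, the widespread enolase, was at 301 and 252 CPM (0.838), Pkm at 602 and 517 CPM (0.858) and Pgk1 at 327 and 279 CPM (0.854). Ldha differed less, at 380 and 358 CPM (0.941, 0.894 to 0.990). Of the genes of pyruvate oxidation, Mpc1 stood at 216 and 158 CPM (0.734, 0.681 to 0.790), Pdha1 at 44.5 and 32.4 CPM (0.728, 0.617 to 0.858), and Mpc2 at 120 and 111 CPM with an interval that holds 1 (0.928, 0.846 to 1.02). Slc2a1 stood at 42.0 and 57.8 CPM (1.38, 1.20 to 1.58), Hk2 at 40.4 and 54.6 CPM (1.35, 1.17 to 1.56), Pfkfb3 at 38.3 and 55.8 CPM (1.46, 1.26 to 1.68) and Slc16a3 at 104 and 131 CPM (1.27, 1.16 to 1.39). Of the other genes of glucose entry, Hk1 stood at 24.3 and 30.9 CPM (1.27, 1.05 to 1.53), Hk3 was at 0.909 (0.772 to 1.07) and Slc2a3 had 51 and 19 UMIs. The remaining genes with the minimum ran from 0.708 (Pdk1) to 1.27 (Pfkfb4), and Slc2a3, Slc2a4, Pfkm, Aldoc, Pgam2, Pdk2 and Pdk4 fell short of it. Fiber markers summed to 137 CPM in Ctrl and 99.6 CPM in dKO, with 0 of 12 at 0 in either library, and their part in these differences was not tested.

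The MO/MP-like class held clusters led by Spp1 (462 and 364 cells), Gpr34 (363 and 266) and Slpi (257 and 200). Ldhb was at 24.9 CPM in Ctrl and 10.9 CPM in dKO in the Spp1 cluster and at 45.7 and 13.8 CPM in the Gpr34 cluster, ratios of 0.437 and 0.303. The Slpi cluster had 10 and 6 Ldhb UMIs, too few to place it. Mpc1 was lower in dKO in all 3, at 258 and 200 CPM, 177 and 116 CPM, and 162 and 128 CPM, and in cluster 5, cluster 12 and cycling MO/MP-like cells its ratio was 0.75, 0.69 and 0.72. Pkm had a ratio of 0.79 in the Spp1 and Gpr34 clusters and of 1.00 in the Slpi cluster, and Pgam1 of 0.77, 0.80 and 0.95 in the same order. Slc16a3 was 1.58 times as high in dKO in the Spp1 cluster (61.3 and 96.5 CPM), and in the Slpi cluster, where it was most abundant, its ratio was 0.98.

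**Figure D5:**
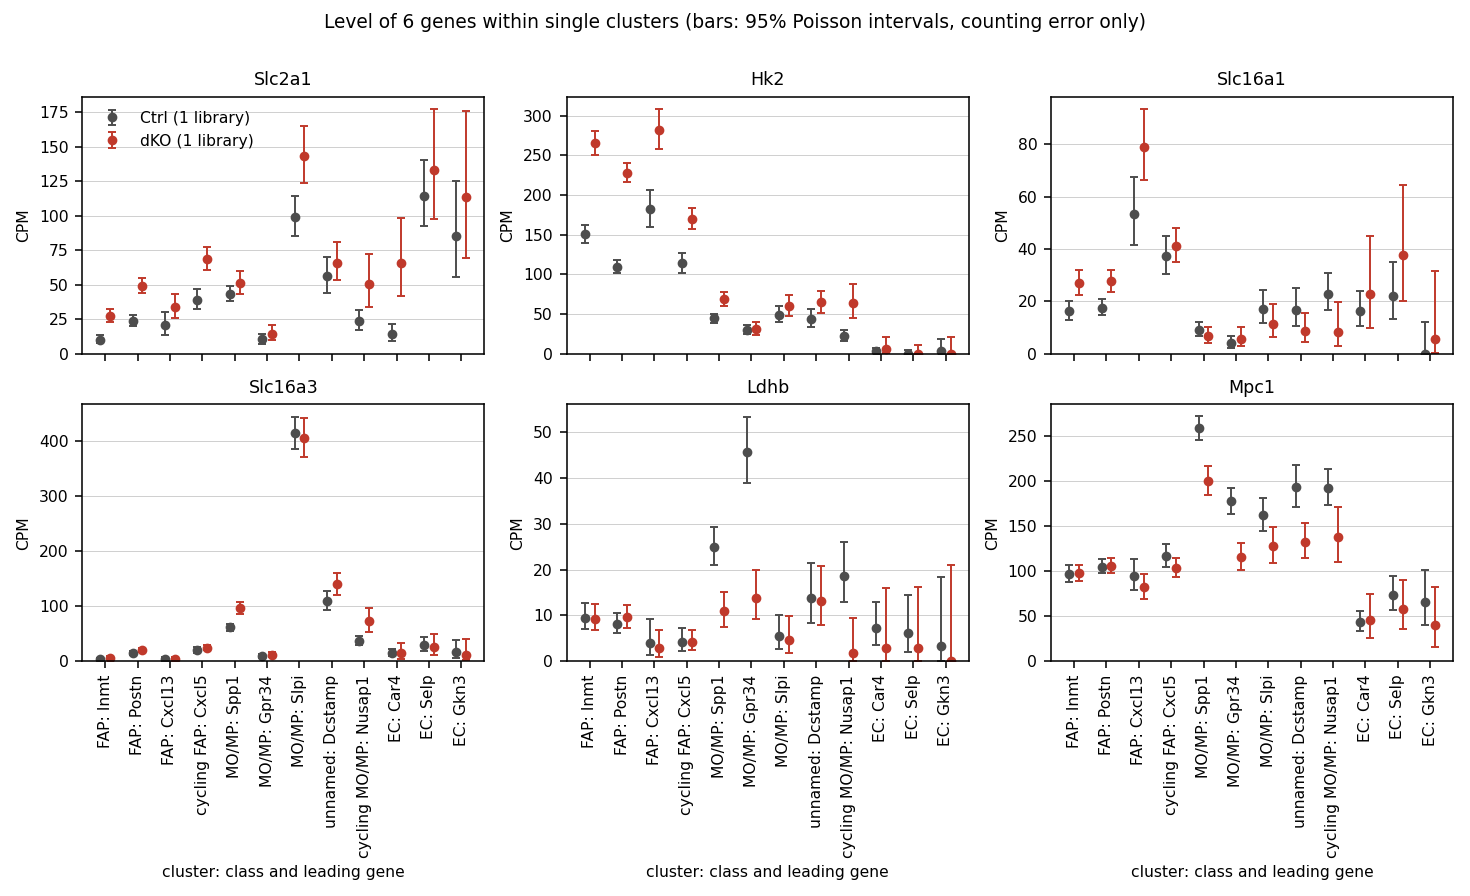
Level of Slc2a1, Hk2, Slc16a1, Slc16a3, Ldhb and Mpc1 in CPM in each of 12 clusters of FAP-like, MO/MP-like, unnamed and EC-like cells, Ctrl beside dKO, with 95% Poisson intervals that cover counting error only. Slc2a1 and Hk2 are higher in dKO in each FAP-like cluster, and Mpc1 is lower in dKO in each of the 3 MO/MP-like clusters.

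In EC-like cells (464 Ctrl and 179 dKO cells), Slc2a1, the glucose transporter of vessel walls, and Pgam1 were higher in dKO, and Pdha1 was lower. Slc2a1 had 141 UMIs in Ctrl and 89 in dKO, or 53.1 and 102 CPM, a ratio of 1.92 (1.46 to 2.52). The clusters of this class did not share that ratio. In the capillary cluster led by Car4 it was 4.58 (2.44 to 8.62), from 22 and 23 UMIs, while the Selp cluster had 114 and 133 CPM (1.17, 0.8003 to 1.68) and the Gkn3 cluster 85.4 and 114 CPM (1.33, 0.705 to 2.48). With clusters weighted equally, the log2 ratio of Slc2a1 was 0.55, short of 1.5-fold. The Car4 cluster gave 291 cells in Ctrl and 97 in dKO, so that the class mean also depends on its share.

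Pgam1 stood at 72.7 CPM in Ctrl and 128 CPM in dKO (1.77, 1.39 to 2.24), and at 1.64, 1.61 and 1.41 in the Car4, Selp and Gkn3 clusters, but as the mean of each cell's CPM its log2 ratio was 0.46, short of 1.5-fold. Pdha1, with 96 and 18 UMIs, stood at 36.2 and 20.7 CPM (0.571, 0.325 to 0.951). Of the 17 genes with at least 100 UMIs, these 2 were past 1.5-fold higher, where 4.55% of 4727 genes were, and 1 past 1.5-fold lower, where 7.13% were. Their median log2 ratio was 0.19, against -0.03 over all genes. Pfkfb3, a regulator known for its part in vessel sprouting, was at 141 and 184 CPM (1.30, 1.07 to 1.57), and Hk1 at 76.9 and 104 CPM (1.36, 1.05 to 1.75). Gapdh (758 and 788 CPM) and Ldha (296 CPM in both libraries) did not differ beyond counting error. The other 10 genes with the minimum ran from 0.814 (Gpi1, glucose phosphate isomerase) to 1.29 (Tpi1), and 18 genes fell short of it, among them Hk2 with 5 and 2 UMIs. Fiber markers summed to 76.1 CPM in Ctrl and 14.9 CPM in dKO, with 1 and 6 of 12 at 0, and their part was not tested.

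In MuSC-like cells, the class in which Yy1 was deleted, the enolases, Pgam1 and Pdhb were lower in dKO, while Gapdh, Aldoa, Pgk1, Pkm and Ldha lay between 0.901 and 1.12 of Ctrl, on 116 Ctrl and 30 dKO cells. This cluster was led by Mymx, Gal, Myog and Chrng, genes of differentiating myoblasts and regenerating fibers. Eno3 (chr11:70657202-70662513, plus strand, GENCODE annotation of GRCm38) had 1309 UMIs in Ctrl and 150 in dKO, or 567 and 242 CPM, a ratio of 0.428 (0.359 to 0.507). Eno1 had 1493 and 223 UMIs, or 647 and 360 CPM, a ratio of 0.557 (0.482 to 0.642). Eno1b, a near copy of Eno1 with which reads can be shared, had 25 and 3 UMIs. Both enolase genes thus stood lower in dKO, and Eno3 gave 46.7% of enolase UMIs in Ctrl and 40.2% in dKO.

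Of the further genes, Pgam1 stood at 303 CPM in Ctrl and 204 CPM in dKO (0.673, 0.552 to 0.814) and Pdhb, the beta subunit of pyruvate dehydrogenase, at 91.4 and 54.9 CPM (0.601, 0.406 to 0.867). As the mean of each cell's CPM, Pdhb was at -0.40 on the log2 scale, short of 1.5-fold. Gapdh stood at 3283 and 3017 CPM (0.919), Pkm at 760 and 848 CPM (1.12, 1.01 to 1.23), Aldoa at 717 and 646 CPM, Pgk1 at 548 and 524 CPM and Ldha at 500.2 and 522 CPM. The gene past 1.5-fold higher in dKO, among those with at least 100 UMIs, was Pgam2. It had 73 UMIs in 13 cells of Ctrl and 47 UMIs in 3 cells of dKO (31.6 and 75.9 CPM, 2.40, 1.63 to 3.51). A single dKO cell held 27 of the 47, and without the cell of most Pgam2 UMIs in each library the log2 ratio was 0.57, short of 1.5-fold. Of the 19 genes with at least 100 UMIs, Pgam2 was thus the 1 past 1.5-fold higher, where 7.52% of 3977 genes were, and Eno1, Eno3 and Pdhb the 3 past 1.5-fold lower, where 13.4% were. The median log2 ratio was -0.12, against -0.01 over all genes. A further 9 genes with the minimum ran from 0.788 (Hk2) to 1.23 (Mpc2), all with intervals that hold 1. The 16 genes under it include Slc2a1 (43 and 6 UMIs), Slc16a1 (83 and 12) and the phosphofructokinases Pfkl (32 and 28) and Pfkm (35 and 22). These are UMIs, not levels, and the dKO class is smaller. Without cells over 0.1% of UMIs on fiber markers, Pfkl had a ratio of 3.04 (1.68 to 5.47) and Pfkm of 1.87 (0.841 to 3.94). Slc2a1 was then at 0.540 (0.187 to 1.29) and Slc16a1 at 0.617 (0.293 to 1.18).

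Fiber markers bear on this class most, since its cells included some with fiber transcripts. They summed to 3122 CPM in Ctrl and 5631 CPM in dKO, with 0 and 2 of 12 at 0, and Pgam2 is itself a gene of mature fibers. When cells with over 0.1% of UMIs on fiber markers were left out, 98 Ctrl and 27 dKO cells remained, with fiber markers at 293 and 132 CPM. Pgam2 was then down to 5 and 2 UMIs, a ratio of 1.37 (0.130 to 8.36), too few to place it. The part of fiber RNA in its difference was not tested. Eno3 stood at 464 and 205 CPM there (0.443), and Eno1 had a ratio of 0.575.

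The smaller classes give levels but less precision. In neutrophil-like cells (98 and 36 cells), Slc2a3 had 128 UMIs in Ctrl and 14 in dKO, or 359 and 151 CPM, a ratio of 0.421 (0.224 to 0.732), while Slc16a3 had 236 and 66 UMIs and similar levels, 662 and 713 CPM. Eno1, at 331 and 205 CPM, had a ratio of 0.619 (0.360 to 1.01) in these cells, and 10 of the 11 genes of the set with at least 100 UMIs lay below Ctrl there, as did 39.04% of the 607 genes with that minimum. In smooth muscle-like cells (107 and 38 cells), Slc2a4 had 69 and 13 UMIs, or 84.0 and 56.2 CPM, an interval of 0.339 to 1.22 for the ratio, so that a difference was not detectable at this depth. Pgk1 (116 and 194 CPM, 1.68, 1.15 to 2.42) and Pkm (324 and 501 CPM, 1.55, 1.23 to 1.93) were higher in dKO in the same cells. In B-like cells Gpi1 stood at 199 and 116 CPM (0.583, 0.368 to 0.905). Thinned to 2000 UMIs, an Slc2a4 UMI was found in 19 of 99 smooth muscle-like cells in Ctrl (19.2%, 11.97% to 28.3%) and in 1 of 31 in dKO (3.23%, 0.0816% to 16.7%), with 38.3% and 23.7% unthinned and median depths of 6730 and 5549.5 UMIs. In MO/MP-like cells, taken for comparison as a class that should lack this transporter, 0 of 1030 and 0 of 777 thinned cells had one (1 of 1082 and 0 of 830 unthinned), which at the thinned depth allows up to 0.358% and 0.474% of cells with a UMI.

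Slc16a3 was higher in dKO in dendritic-like cells (70 and 101 UMIs, ratio 1.72) and in cycling MO/MP-like cells (69 and 43 UMIs, 1.96). In tenocyte-like cells Slc16a1 had 84 and 30 UMIs, a ratio of 0.626 (0.398 to 0.960), the opposite direction to FAP-like cells. In the Schwann-like cluster (34 and 19 cells) Slc2a1 stood at 340 CPM in Ctrl and 485 CPM in dKO, its highest level in any class, and Slc16a1 at 170 and 330 CPM. With doublets kept, the clustering gave separate perineurial-like and Schwann-like clusters, which do not hold the same cells as the joint cluster (11 and 14 dKO cells against 19). Their levels were looked up after the data were seen. Slc2a1 lay with the perineurial-like cells (69 UMIs in 18 cells of Ctrl and 51 in 11 cells of dKO, against 1 and 3 UMIs in the Schwann-like cells), as did Slc16a1 (34 and 34 UMIs). Ldhb was at 355 and 273 CPM in the Schwann-like cells (14 and 15 UMIs). In the perineurial-like cells it was at 139 and 45.1 CPM (23 and 3 UMIs).

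Genes of neighboring pathways, taken from lists fixed by name, were compared in the same way. Of 29 further genes of sugar and pyruvate metabolism, 12 had at least 100 UMIs in FAP-like cells (median log2 ratio -0.08), and 1 lay past 1.5-fold, Bpgm, which makes 2,3-bisphosphoglycerate, at 33.7 CPM in Ctrl and 16.3 CPM in dKO (0.482, 0.407 to 0.570). In MO/MP-like cells 14 of them had the minimum (median -0.10), and the pyruvate dehydrogenase phosphatases Pdp1 and Pdp2 were 1.63 and 1.87 times as high in dKO. In EC-like cells 4 had it (median 0.29), with Gpd2, of the glycerol phosphate shuttle, at 1.52, and in MuSC-like cells 4 had it (median 0.13) and 0 were past the limit.

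None of the 7 pentose phosphate genes, which draw on glucose 6-phosphate, was past 1.5-fold in these 4 classes. Their medians were 0.12 in FAP-like, -0.15 in MO/MP-like, -0.18 in EC-like and 0.11 in MuSC-like cells, on 7, 7, 3 and 3 genes. Of 12 glycogen genes, 10, 8 and 1 had the minimum in FAP-like, MO/MP-like and EC-like cells, 0 of them past the limit, with medians of -0.01, -0.36 and 0.10, and 0 had it in MuSC-like cells.

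Of 14 genes induced by hypoxia outside glycolysis, 11 had the minimum in FAP-like cells, with a median of 0.29. Ero1l, an oxidase of protein folding, was past the limit at 28.2 and 44.7 CPM (1.59, 1.39 to 1.81), and Vegfa, the vessel growth factor, had a ratio of 1.40. In MO/MP-like cells the median was 0.25 on 10 genes with 0 past the limit. EC-like cells were mixed, with a median of -0.18 on 10 genes. P4ha2 (1.98) and Higd1a (1.52) were higher there, and Vegfa (0.628) and the vasodilator peptide gene Adm (197 and 19 UMIs, 0.294, 0.173 to 0.471) were lower. In MuSC-like cells 4 had the minimum (median 0.17) and Mxi1 was at 1.51.

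Of 11 regulators of the pathway, 8 had the minimum in FAP-like, MO/MP-like and EC-like cells alike and 3 in MuSC-like cells, with medians of 0.01, 0.09, 0.03 and -0.28. Hif1a, the oxygen-sensitive factor that binds the core searched for above, had ratios of 1.08 in FAP-like, 1.26 in MO/MP-like and 1.35 in EC-like cells. In MuSC-like cells it had 231 UMIs in Ctrl and 36 in dKO, or 100.0 and 58.2 CPM (0.582, 0.397 to 0.829). Ppard, a receptor for fatty acids, was at 0.566 in EC-like cells. These lists share no gene with the set of 35.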

How the data were processed

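Counts of unique molecular identifiers (UMIs) per gene and barcode were deposited by the authors for 2 libraries, Ctrl and dKO, 1 for each group, each pooled from 3 mice. Per the submitters' processing notes, reads were aligned to mm10 with Cell Ranger 7.0.0 and handled in Seurat 4.3.0, while the matrix headers name version 3.0.2 and list 0 mitochondrial genes. The counts per library were 45556596 and 33815155, and 7 barcodes occurred in both.

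From these counts, cells with under 500 genes were left out (192 Ctrl and 154 dKO). Scrublet in scanpy 1.11.5 (30 components) scored doublets. Its own threshold marked 4 and 14 cells, so the 7.5% with the highest scores were removed in each library (325 and 250). The libraries were integrated by anchors in Seurat 5.3.0 (R 4.3.3; scale factor 10000, 2000 variable genes without the 35 members, 40 dimensions, resolution 0.8). Clusters were named from 19 marker lists (165 genes, 4 of them not listed in the files). A name needed 3 or more markers enriched at 2-fold and seen in 10% of the cluster's cells, and leading genes that did not go against it. Leading genes were the 10 of highest fold among those in at least 20% of cells and at 50 CPM.

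UMIs were summed by class and library and scaled to CPM of the class total. Ratios of dKO to Ctrl carry exact conditional 95% intervals, levels Poisson and shares exact binomial ones (Python 3.11.15, numpy 2.4.6, scipy 1.17.1). These cover counting error only, and no test between groups was possible with 1 library each. Genes with at least 100 UMIs over both libraries were counted as past the limit at a ratio of 1.5 in either direction. Shares of cells with a UMI were computed on cells thinned to 2000 UMIs. Fiber RNA was followed by 12 markers, with a limit of 0.1% of a cell's UMIs. The calculation was tested on simulated data. All 35 members could be named, and of the related lists the genes past the limit in a class, besides Yy1, fiber markers and the 5 genes most like the set. Vegfa and Hif1a in classes where they were not past the limit, Eno1b, and cluster-leading genes were named after their values were seen. The members, lists and comparisons were chosen with earlier results of these data known.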

Additional observations from a re-analysis of the deposited data

Results flagged for a closer look

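Of the 26 genes of the set that had at least 100 UMIs in both FAP-like and MO/MP-like cells, 3 core enzymes stood on opposite sides of Ctrl in these classes with counting intervals clear of 1. Pgk1 was at 126 CPM in Ctrl and 140 CPM in dKO in FAP-like cells, while MO/MP-like cells had 327 and 279 CPM, and its log2 ratio was higher in the first class by 0.37. Pgam1 differed by 0.46 (152 and 174 CPM, against 429 and 356 CPM) and Ldha by 0.25 (253 and 282 CPM, against 380 and 358 CPM). The difference between the classes was not tested, because each genotype has 1 library.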

How the results depend on the processing

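No paired analysis was possible because each group has 1 library. On the log2 scale, the summed level of the set in FAP-like cells differed by 0.13 between the libraries. It differed by 0.20 with scaling to the median ratio of genes and also without integration, by 0.17 as the mean of each cell's CPM, with the members kept among the variable genes and without Gapdh and Aldoa, by 0.19 with doublets kept, by 0.21 with cells of at least 200 genes and by 0.16 with clusters weighted equally. In MO/MP-like cells it was -0.18, and -0.16 as the mean of each cell's CPM or without Gapdh and Aldoa. In EC-like cells it was 0.15, 0.070 as the mean of each cell's CPM and 0.067 with clusters weighted equally. In MuSC-like cells it was -0.17, and -0.22 as the mean of each cell's CPM. No sum changed direction.

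The number of genes past 1.5-fold in FAP-like cells (5) was 3 with cells of at least 200 genes and 1 at a fold of 2. In MO/MP-like cells (1) it was 5 as the mean of each cell's CPM, 2 with doublets kept or clusters weighted equally, and 3 with no minimum. In EC-like cells (3) it was 8 with no minimum and 0 at a fold of 2, and in MuSC-like cells (4) it was 14 and 2. Weighting clusters equally, and adding clusters 5 and 12 to the MO/MP-like class, were chosen after the data were seen. The cause of these shifts was not tested, apart from the 2 that change the limit itself.

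Of 844 values of single genes under an alternative, 791 lay within the counting interval of the value reported and 53 did not. The sign differed from the reported one in 50, over 25 gene and class pairs whose reported log2 ratio was at most 0.34 in size, among them Gpi1 and Ldhb in FAP-like, Ldha in EC-like and Hk1 in MuSC-like cells. Of the 113 values for the 13 pairs past 1.5-fold, 0 changed sign. Log2 ratios ran from 0.92 to 1.19 for Slc2a1, 0.80 to 0.99 for Hk2, 0.56 to 0.81 for Slc16a1 and 0.35 to 0.87 for Slc2a3 in FAP-like cells, from -1.49 to -1.30 for Ldhb in MO/MP-like cells, from 0.55 to 0.97 for Slc2a1 and 0.46 to 0.85 for Pgam1 in EC-like cells, and from -1.53 to -1.13 for Eno3 and 0.50 to 1.28 for Pgam2 in MuSC-like cells. Pgam2 was at 0.57 without the cell that held most of its UMIs in each library. Depth limits the smallest classes, with 13 lymphatic EC-like and 19 Schwann-like cells in dKO, where 1 and 3 genes of the set had at least 100 UMIs.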

Other observations

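Over the 32 points made by 16 classes in 2 libraries, the genes whose level followed the summed level of the set most closely, of 12523 genes compared, were Mrpl33, of the mitochondrial ribosome (Spearman's rho 0.90), Txn1, thioredoxin (0.88), Mdh2, mitochondrial malate dehydrogenase (0.84), and the cytoskeletal genes Zyx (0.82) and Flna (0.79). The points share libraries, depth and the class composition, and the values are given as a description.

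In the perineurial-like cluster seen with doublets kept, Slc2a1 stood at 417 CPM in Ctrl and 766 CPM in dKO and Slc16a1 at 205 and 511 CPM, on 18 and 11 cells, while Hk2 had 26 and 4 UMIs.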
